A study of Mus musculus with 3 samples.

Results

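The small nucleolar RNA (snoRNA) loci and the Snhg host loci of the mouse heart ventricle were examined. Members were the loci of the deposited transcript annotation that hold a transcript named with the prefix Snord, Snora or Snhg, or named Gas5, and 119 of 48617 annotated loci met this rule. Of these, 31 also held a RefSeq protein-coding transcript, and 88 did not. Total RNA of ventricles came from C57BL/6 mice of embryonic stages E10.5 and E13.5 and from adults aged 8 weeks. Each stage was represented by 1 paired-end, strand-specific library. The labels do not say how many embryos or hearts went into a library. With 1 library per stage no difference could be tested, so every value below is a description of these 3 libraries, and the 3 comparisons between stages share libraries. Levels are in FPKM, a fragment count scaled by exon length and by library size. Changes are differences of log2(FPKM + 1), and a locus was called higher or lower where the difference reached 1. The files hold no read counts and no total for a library, and the study gives only an approximate read number common to the libraries, so no counting interval was attached to a level.

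snoRNAs are short RNAs of the nucleolus that guide chemical modification of ribosomal RNA. Box C/D snoRNAs (Snord genes) guide methylation of the ribose and carry a C box near the 5′ end and a D box near the 3′ end. Box H/ACA snoRNAs (Snora genes) guide conversion of uridine to pseudouridine and end in the trinucleotide ACA, a few bases before the 3′ terminus. Most mammalian snoRNAs are cut out of introns, either of genes that encode ribosomal proteins and translation factors or of non-coding host genes, for which the Snhg genes are named. A few snoRNAs help to cut the ribosomal RNA precursor instead of modifying it. Proliferating and growing cells make many ribosomes, and the pathway is therefore of interest in a tissue that passes from dividing embryonic myocytes to a largely non-dividing adult muscle.

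The 88 loci without a protein-coding transcript fell into 4 kinds. There were 69 short loci with an exon length under 200 nt, of which 55 were named Snord, 13 Snora and 1 Snhg. There were 13 host lncRNA loci, 1 single snoRNA locus of 221 nt (Snord17) and 5 loci assembled around or beside a snoRNA. The ventricle markers listed for the check of the tissue were present in all 3 libraries, with medians of 579 (E10.5), 1329 (E13.5) and 3251 FPKM (Adult). Proliferation markers had medians of 36.2, 36.6 and 0.386 FPKM, macrophage markers 1.36, 6.01 and 24.4 FPKM, and the erythroid and atrial markers measured were all lower in the adult library than in that of E13.5. Their part in the results below was not tested. In whole tissue, fewer cells of a type and less RNA per cell cannot be told apart.

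Most short loci carried no value. Of the 69 short loci, 61 were listed at 0 FPKM in all 3 libraries and 8 were above 0 in at least 1 library. The 8 were Snord15b, Snord15a, Snora64, Snora70, Snora28, Snora78, Snora75 and Snora16a. The split followed exon length. Every short member of up to 115 nt was listed at 0, and 8 of the 11 short members of 116 nt or more were above 0. The other 3 were Snora36b at 118 nt, Snora35 at 119 nt and Snhg9 at 183 nt. The same limit held outside the members. Among single-exon loci of up to 115 nt that carried a reference name, 454 of 454 were listed at 0 in all 3 libraries, 57 of them members. The 11 unnamed loci of that length, which were assembled from the reads, were all above 0. The limit of 115 nt was read from the data and was not part of the rule. An exact 0 for these loci therefore says nothing about whether the RNA was present.

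**Figure D1:**
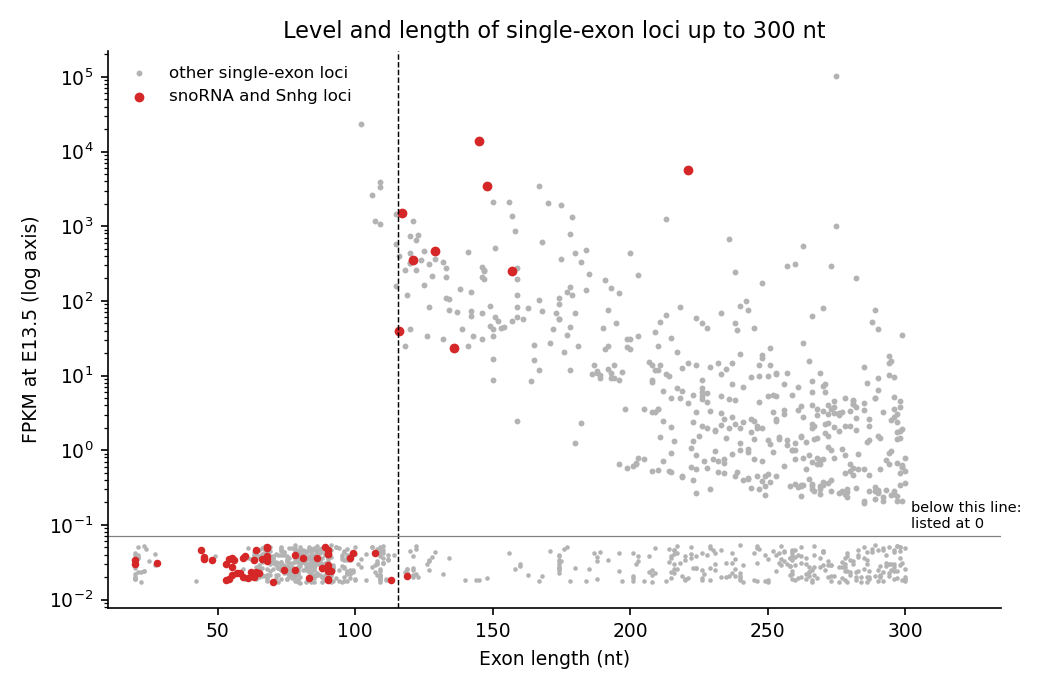
Each point is 1 single-exon locus of up to 300 nt, with its exon length on the horizontal axis and its FPKM at E13.5 on a log axis. Members are red, other loci are grey, points under the line were listed at 0 with a random vertical offset, and the dashed line lies just above 115 nt. No red point left of the dashed line is above 0, and the lowest grey values rise towards short lengths.

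Levels of short loci also could not be set against those of longer loci. Among single-exon loci of 130 to 139 nt the lowest value above 0 was 9.05 (E10.5), 23.0 (E13.5) and 3.62 FPKM (Adult). At 200 to 249 nt the corresponding values were 0.447, 0.253 and 0.423 FPKM, and at 1000 to 1999 nt they were 0.0153, 0.00613 and 0.0176 FPKM. The lowest level observed thus fell steeply with length in each library. These classes held 13, 238 and 8431 loci, and a minimum also depends on the number of loci. At 130 to 139 nt the E10.5 and E13.5 values were those of the member Snora16a. Levels of short members are therefore read below across the 3 stages of a locus, and against one another only among loci of similar length.

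Snord15b and Snord15a, also known as U15b and U15a, are box C/D snoRNAs that lie in separate introns of Rps3, a gene for a protein of the small ribosomal subunit. Their sequences are shown because these loci gave the highest listed levels of the short members in both embryonic libraries. They were read from the GRCm38.p6 assembly at the deposited bounds, on the minus strand, at chr7:99479563-99479707 (Snord15b) and chr7:99482785-99482932 (Snord15a). Capitals mark a C box motif TGATGA in the first 20 bases and the last D box motif CTGA in the final 12 bases.
Snord15b: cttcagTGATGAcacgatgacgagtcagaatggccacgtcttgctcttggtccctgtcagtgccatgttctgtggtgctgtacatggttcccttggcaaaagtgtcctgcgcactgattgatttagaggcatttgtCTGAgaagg
Snord15a: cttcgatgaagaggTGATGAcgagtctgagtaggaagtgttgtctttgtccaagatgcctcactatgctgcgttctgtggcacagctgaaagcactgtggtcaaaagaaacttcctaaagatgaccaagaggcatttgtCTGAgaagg
In a global alignment the sequences were identical at 107 of 162 columns, or 66.05%. They shared an unbroken run of 21 bases at the 3′ end, agaggcatttgtCTGAgaagg, which holds the D box.

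Snord15b measured 7180.2 (E10.5), 13769 (E13.5) and 5774 FPKM (Adult). Snord15a was at 1861, 3465 and 453 FPKM. Both were highest at E13.5. From there to the adult both were lower, Snord15b with a change of −1.25 and Snord15a with −2.93. From E10.5 to the adult the changes were −0.31 and −2.04. The ratio of Snord15b to Snord15a was 3.86 at E10.5 and 3.97 at E13.5 and then 12.7 in the adult. The neighbours thus kept nearly the same ratio in both embryonic libraries and a different one in the adult library. Their common host Rps3 was at 486, 775 and 183 FPKM, with a change of −2.07 from E13.5 to the adult, between those of its snoRNAs.

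Snord17 is a box C/D snoRNA in an intron of Snx5, which encodes a sorting nexin, at chr2:144265982-144266202 on the minus strand. Its locus was 221 nt long, above the limit for short loci, and is shown because it was the only single snoRNA locus above that limit. No TGATGA was present in its first 20 bases.
Snord17: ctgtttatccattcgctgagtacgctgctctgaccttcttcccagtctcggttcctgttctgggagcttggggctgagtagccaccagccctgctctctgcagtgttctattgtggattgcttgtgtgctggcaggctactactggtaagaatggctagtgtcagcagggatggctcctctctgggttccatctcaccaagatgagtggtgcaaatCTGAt
Snord17 measured 3927 (E10.5), 5576 (E13.5) and 2100.3 FPKM (Adult). It followed the same order of stages as Snord15b, with changes of 0.51 from E10.5 to E13.5, −1.41 from E13.5 to the adult and −0.90 from E10.5 to the adult. Snx5 was at 151 and 144 FPKM in the embryonic libraries and at 41.3 FPKM in the adult.

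The 6 box H/ACA members with a value are shown next by 3 sequences, each with the terminal ACA in capitals. Snora64 lies in an intron of Rps2 (chr17:24720789-24720905, plus strand), a ribosomal protein gene, and had the widest difference between the embryonic stages among short members above 0 in every library. Snora78 lies in the span of Snhg9, on the strand opposite to Rps2 (chr17:24719676-24719832, minus strand). Snora75 lies in an intron of Ncl (chr1:86351170-86351285, minus strand), the gene for nucleolin, and was the shortest member above 0.
Snora64: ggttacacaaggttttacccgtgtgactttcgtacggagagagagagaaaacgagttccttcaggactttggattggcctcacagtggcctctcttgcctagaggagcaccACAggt
Snora78: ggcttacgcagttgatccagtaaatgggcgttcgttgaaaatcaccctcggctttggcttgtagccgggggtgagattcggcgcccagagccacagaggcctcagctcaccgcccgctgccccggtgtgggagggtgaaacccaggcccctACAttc
Snora75: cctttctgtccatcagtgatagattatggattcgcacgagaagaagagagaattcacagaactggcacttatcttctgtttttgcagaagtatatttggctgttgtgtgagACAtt

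Snora64 measured 201 (E10.5), 1515 (E13.5) and 503 FPKM (Adult). It was the only short member called higher between E10.5 and the adult (1.32), although its change from E13.5 to the adult was −1.59. Snora70, in an intron of the ribosomal protein gene Rpl10, was at 286, 461 and 199 FPKM. Snora28, in an intron of the translation initiation factor gene Eif5, was at 219, 352 and 144 FPKM. Of the short members, Snora70 had the narrowest range over the stages, with 1.20 between its highest and lowest value on the log2 scale.

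Snora78 measured 86.5 (E10.5), 248 (E13.5) and 19.4 FPKM (Adult). With changes of 1.51, −3.61 and −2.10 it had the greatest adult decrease of the short members above 0 in all 3 libraries. The locus around it, Snhg9, was listed at 0 in each library. Snora16a, inside the span of Snhg12, was at 9.05, 23.0 and 5.48 FPKM. In both embryonic libraries these values were under the lowest value above 0 of any other single-exon locus within 10% of its length, at 0.72 and 0.93 times that value. Snora75 was at 39.5 FPKM at E13.5, which was 1.61 times the lowest like-length value, and had a listed value of 0 in the E10.5 and adult libraries. The levels of Snora16a and Snora75 therefore lay at or near the lowest that these lengths gave.

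**Figure D2:**
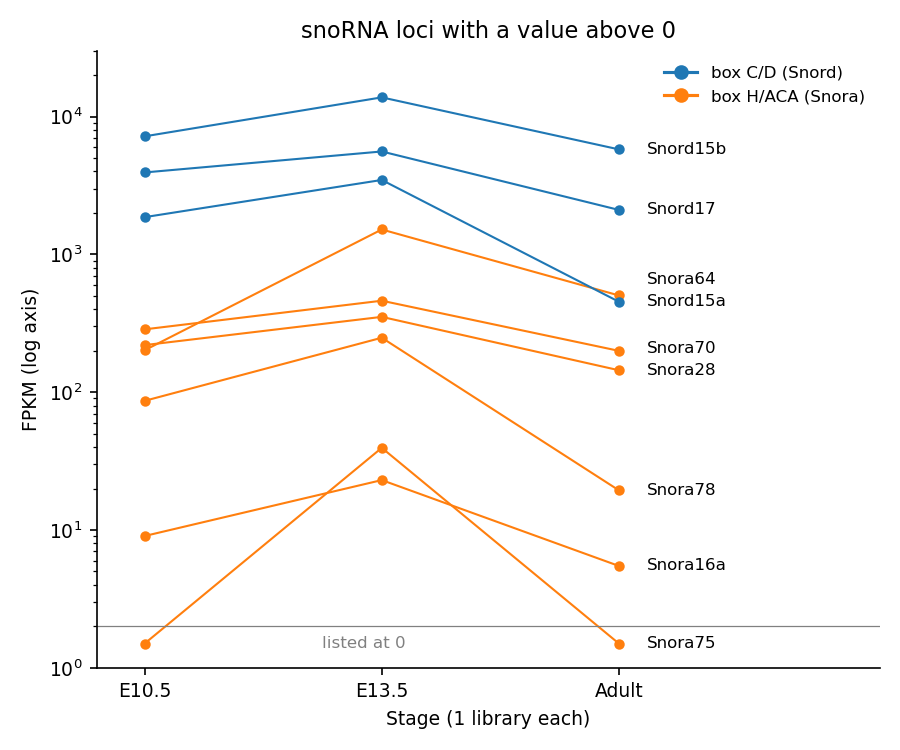
Levels of the 8 short members above 0 and of Snord17, as FPKM on a log axis, in the E10.5, E13.5 and adult libraries. Box C/D members are blue, box H/ACA members are orange, and points under the grey line were listed at 0. Each of the 9 lines peaks at E13.5, the only library in which Snora75 had a value. Some unnamed loci of like length peak there too, and their share was not counted.

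All 8 short members with a value, and Snord17, were highest at E13.5. Snora75 had a value in that library only, so its highest stage was fixed by the choice of loci with a value. Some unnamed loci of like length were also highest at E13.5, and the share of other loci with this peak was not counted. From E13.5 to the adult 8 of 8 were called lower, with a median change of −1.74. Over all loci that reached 1 FPKM in any library, 18.6% were called lower in this comparison and the median change was 0.19. Over all loci under 200 nt, 64.3% were called lower and the median change was −1.55, while 7.57% were called higher, as were 29.1% of all loci. The direction was thus the common one for short loci in these files. When the libraries were rescaled by median-of-ratios factors over protein-coding loci, 5 of 8 short members were called lower, against 49.7% of loci under 200 nt. Snord15b, Snora28 and Snora70 then had changes of −0.68, −0.71 and −0.64. With the filter applied after rescaling, the median change of all loci went from 0.19 to 0.72 in this comparison and from −0.09 to 0.46 from E10.5 to the adult. Over the loci that had passed the filter before rescaling it moved by 0.32 and 0.31.

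From E10.5 to E13.5, 4 of the 8 short members were called higher, against 3.95% of all loci and 24.9% of loci under 200 nt, and none was called lower, against 17.2% and 21.1%. All 8 had a change above 0, with a median of 1.10. A change above 0 was also found for 117 of 185 loci under 200 nt and for 11735 of 26910 loci in all. The 4 were Snora64, Snora78, Snora16a and Snora75, all box H/ACA, and for Snora75 the E10.5 value was listed at 0. From E10.5 to the adult, Snord15a and Snora78 were called lower and Snora64 higher, so 2 of 8 were lower, against 24.9% of all loci and 59.5% of loci under 200 nt. The 1 locus called higher stood against 25.8% of all loci and 11.4% of loci under 200 nt. With Snora75 left out, 3 of 7 were called higher from E10.5 to E13.5 and 7 of 7 lower from E13.5 to the adult.

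The 61 short loci without a value were read by their position and sequence only. Of the 69 short loci, 56 lay inside the span of another locus on the same strand, 45 of them in loci with a protein-coding transcript, and all 56 lay outside the exons of that locus. Among the 61 loci listed at 0, 48 lay inside such a host, and for 41 of these the host was at 1 FPKM or more in every library. In 10 cases the host reached 100 FPKM. Examples are Snord37 in Eef2, which encodes a translation elongation factor (748, 986 and 328 FPKM), and Snord2 in Eif4a2, which encodes an initiation factor (2579, 5549.9 and 3680 FPKM, a locus that also contains Snora81). Both snoRNAs were listed at 0 at these host levels.

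The Rpl13a introns hold the snoRNAs Snord32a, Snord33, Snord34 and Snord35a, which have been studied in lipotoxic stress. In the annotation Snord32a, Snord34 and Snord35a formed loci of 81, 66 and 89 nt and were listed at 0. Snord33 was part of the Rpl13a locus. Of the box C/D RNAs of Gas5, Snord47 formed a locus of 65 nt and was listed at 0, and Snord22, from Snhg1, was part of its host locus. A locus named Snord118, after the U8 RNA needed for maturation of large-subunit ribosomal RNA, was annotated with 44 nt and was listed at 0. Its bounds matched no RefSeq snoRNA gene and overlapped no snoRNA of the GENCODE M21 annotation. Whether this locus is the U8 gene was therefore not established. The Snord116 RNAs of the imprinted Snrpn region were present as 10 loci of 90 nt with 1 identical sequence, each listed at 0, and reads from identical copies could not be assigned to a single copy. Sequences of 3 of them are shown because these loci carry the boxes of their class although they had no value. Snord47 is on the plus strand at chr1:161038092-161038156, Snord32a is on the minus strand at chr7:45127383-45127463, and the copy of Snord116 shown is on the minus strand at chr7:59675990-59676079.
Snord47: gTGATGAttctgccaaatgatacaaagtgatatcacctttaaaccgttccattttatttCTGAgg
Snord32a: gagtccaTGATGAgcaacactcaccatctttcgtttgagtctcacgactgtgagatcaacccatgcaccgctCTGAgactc
Snord116: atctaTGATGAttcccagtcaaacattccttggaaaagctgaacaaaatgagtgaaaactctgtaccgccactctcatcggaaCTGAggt

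The boxes were counted over all 118 single-exon snoRNA transcripts of the members, on the annotated strand. CTGA in the last 12 bases was found in 76 of 82 Snord transcripts, or 92.7%, against 7.18% of 599 other loci under 200 nt. TGATGA in the first 20 bases was found in 27 of 82, or 32.9%, against 1.5025% of the other loci. ACA in the last 8 bases was found in 34 of 36 Snora transcripts, or 94.4%, against 12.02% of the other loci. Of the 118 transcripts, 96 had the same bounds as a RefSeq snoRNA gene. Of 64 short members that overlapped a snoRNA of the GENCODE M21 annotation, 58 were annotated shorter than in GENCODE. Snord98, for example, had 28 nt where GENCODE gives 65 nt. Only 5 members of up to 115 nt would have 116 nt or more with the GENCODE bounds.

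The loci around the measured snoRNAs did not follow one course. From E10.5 to E13.5, Snord15a, Snord15b and Snora64 were higher and so were their hosts, Rps3 with a change of 0.67 and Rps2 with 4.38. Over the same interval Snora28, Snora70, Snora75, Snora16a and Snord17 also had changes above 0, while their hosts Eif5, Rpl10, Ncl, Snhg12 and Snx5 had changes of −0.79, −0.87, −0.67, −0.06 and −0.07. From E13.5 to the adult all 7 hosts with a value had changes below 0, between −0.29 for Ncl and −2.12 for Rps2. Rps2 was at 2.16, 64.8 and 14.1 FPKM and Rpl10 at 13.03, 6.66 and 4.42 FPKM, low values beside the 486 FPKM of Rps3 at E10.5. Ribosomal protein genes have many processed pseudogenes, and how fragments with several matches were assigned is not given in the sources used here, so the levels of these hosts are uncertain.

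**Figure D3:**
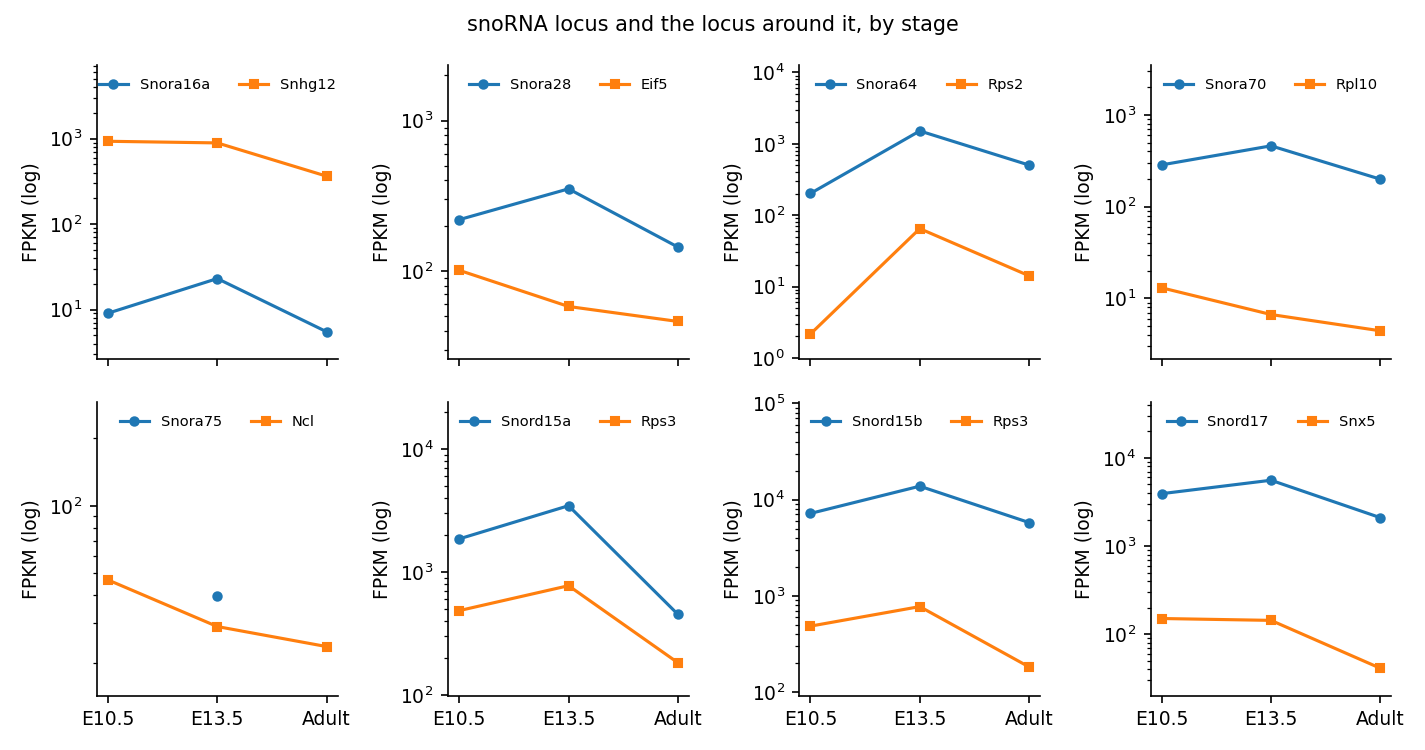
FPKM on a log axis in the E10.5, E13.5 and adult libraries, for 8 snoRNA loci (blue circles) and the locus around each (orange squares). Values listed at 0 are not drawn, so Snora75 has 1 point. Eif5 and Rpl10 fall from E10.5 to E13.5 while the snoRNAs in their introns rise.

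The 13 host lncRNA loci formed a low and a high group by level. Each locus is the union of all its transcripts, and in some of them the deposited annotation includes the snoRNA as a transcript. In all, 5 loci held a snoRNA transcript of 116 nt or more, the length from which short loci had values, and these were Snhg1, Snhg4, Snhg7, Snhg12 and 2700023E23Rik, an older name of Dancr. Their levels lay between 827 and 2643 FPKM at E10.5, with a median of 1589. The other 8 loci lay between 1.86 and 65.99 FPKM, with a median of 27.0. The groups did not overlap in any library, with 863 to 3740.0 against 5.19 to 81.5 FPKM at E13.5 and 363 to 975 against 0.530 to 23.3 FPKM in the adult. The division at 116 nt was made after the values had been seen, so the lack of overlap is a description and was not tested. Members with a protein-coding transcript were left out of this division. A locus value does not separate the spliced host RNA from the snoRNA within it, so the level of the host RNA of the high group cannot be told apart from that of its snoRNA. An exception to the pattern of length was a locus assembled around Snora47 (126 nt) in the Zbed3 region, which was at 3.98, 26.8 and 19.7 FPKM.

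**Figure D4:**
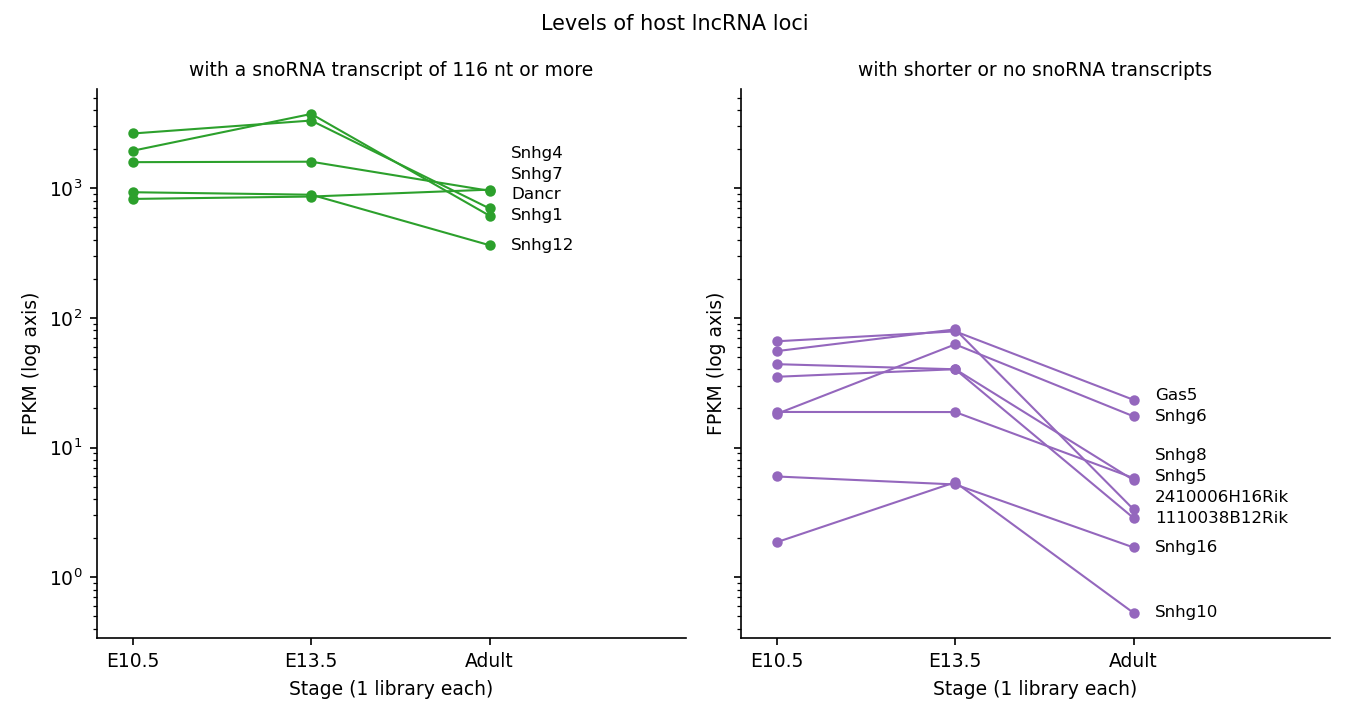
Levels of the 13 host lncRNA loci as FPKM on a log axis in the 3 libraries, with the 5 loci that contain a snoRNA transcript of 116 nt or more on the left and the other 8 on the right. The left group lies above the right group in every library, and 12 of the 13 lines end lower in the adult than at E13.5.

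In the high group, Snhg1 (chr19:8723244-8726473, plus strand) measured 1947 (E10.5), 3739.95 (E13.5) and 613 FPKM (Adult), with a change of −2.61 from E13.5 to the adult. Its locus contains Snord22, the U22 RNA needed for processing of small-subunit ribosomal RNA. The Dancr locus, named after an lncRNA studied in progenitor cells, was at 2643, 3326.5 and 698 FPKM, with a change of −2.25, and contains Snora26. Both embedded snoRNAs are shown because the value of each locus includes them. They lie on the plus strand at chr19:8725866-8725991 and chr5:74093530-74093650.
Snord22: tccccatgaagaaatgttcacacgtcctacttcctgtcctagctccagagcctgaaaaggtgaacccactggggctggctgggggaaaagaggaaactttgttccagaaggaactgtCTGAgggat
Snora26: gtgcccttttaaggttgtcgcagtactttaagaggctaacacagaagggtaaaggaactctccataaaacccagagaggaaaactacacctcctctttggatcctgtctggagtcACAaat
Snhg7, with Snora17 and Snora43, was at 1589, 1602 and 955 FPKM. Snhg12, with Snora44, Snora61 and Snord99, was at 931, 891 and 363 FPKM. Snhg4, with Snora74a, was at 827, 863 and 975 FPKM and was the only host lncRNA locus with a change above 0 from E13.5 to the adult (0.18). The spread within the high group therefore ran from a nearly flat course for Snhg4 to a steep one for Snhg1.

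In the low group, Gas5 (chr1:161034946-161040287, plus strand), named for its rise in growth-arrested cells, was at 65.99, 78.7 and 23.3 FPKM, with changes of 0.25 and −1.71. Snhg6 was at 18.2, 62.5 and 17.4 FPKM. It had the greatest embryonic rise of the host lncRNA loci (1.73), and its E10.5 and adult levels were close together. Snhg5 was at 35.1, 40.2 and 5.61 FPKM, and Snhg8 at 18.8, 18.8 and 5.81 FPKM. Snhg10 was at 1.86, 5.40 and 0.530 FPKM, and 1810032O08Rik, an older name of Snhg16, at 5.98, 5.19 and 1.695 FPKM.

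The steepest adult decreases in the low group were those of 2 loci that carry no Snhg name in the deposited annotation. The locus 2410006H16Rik, with Snord49a, was at 55.4, 81.5 and 3.33 FPKM, a change of −4.25 from E13.5 to the adult. The locus 1110038B12Rik, with Snord52, was at 43.9, 40.1 and 2.86 FPKM, a change of −3.41. Gas5, by contrast, kept the highest adult level of the low group. The members of this group thus shared a direction but not a size of change.

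Of the 13 host lncRNA loci, 11 were called lower from E13.5 to the adult and none higher, with a median change of −1.79. The exceptions were Snhg7 (−0.75) and Snhg4. From E10.5 to the adult 9 were called lower and none higher, with a median of −1.46. From E10.5 to E13.5 only Snhg6 and Snhg10 were called higher and none lower, against 5.89% and 4.85% of protein-coding loci. Protein-coding loci were called lower in 32.1% of 12569 cases from E13.5 to the adult and in 27.3% from E10.5 to the adult, with median changes of −0.50 and −0.40, and were called higher in 13% and 14.8%. With median-of-ratios scaling 9 of 13 host lncRNA loci were called lower from E13.5 to the adult, against 18.9% of protein-coding loci. From E10.5 to the adult 8 of 13 were called lower with this scaling, against 18.4% of protein-coding loci. Snhg12 and 1810032O08Rik then had changes of −0.72 and −0.78 from E13.5 to the adult.

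The genes for ribosomal proteins, many of which host snoRNAs, gave similar counts. Among 64 ribosomal protein loci at 1 FPKM or more that hold no snoRNA name, 52 were called lower and 1 higher from E13.5 to the adult, with a median change of −1.81. This median lay beside the −1.79 of the host lncRNA loci. Host lncRNAs and ribosomal protein mRNAs often begin with a run of pyrimidines, the 5′ terminal oligopyrimidine tract. RefSeq promoters were therefore searched for a run of at least 7 C or T bases that reached the start site or ended at most 3 bases before it. Such a run was present in 6 of 14 promoters of 12 Snhg and other host members, or 42.9%, with Snhg9 counted and Snhg4 and Snhg6 not included, in 30.3% of 76 ribosomal protein promoters and in 8.90% of 32851 promoters. The windows of 30 bases shown here, 12 before the start site and 18 from it onwards, have the run in capitals where one was found.
Snhg12: cgttctcagTCCTTTCTCgcttcatccgcg
Snhg8: ccgttcagaagTCTCTTTggctgcgatccg
2410006H16Rik: cgcgccgTCTTTCTCTgcggccatcatggg
Gas5: cgccatctcagcctttcggagctgtgcggc
Snhg1: gttcttgtcggcctcatttttccttgttcg
The start sites lie at position 132308678 of chromosome 4, 123508336 of chromosome 3, 62602877 of chromosome 11, 161035166 of chromosome 1 and 8723487 of chromosome 19. The run at the Gas5 start was 6 bases long and that at Snhg1 was 4, both under the limit of 7. A match is a description of these letters at annotated starts, and at Snhg9 and Snhg10 the run ended before the start site. A run under the limit does not show that the RNA lacks such a tract. The relation of a match to the size of the adult decrease was not tested.

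The 5 loci assembled around or beside a snoRNA were heterogeneous. The locus of Snord104 was at 4.39, 6.72 and 2.03 FPKM. A locus of the Snrpn region that holds Snord64 was at 13.6, 7.12 and 4.44 FPKM. A locus antisense to a copy of Snord58b was at 4.15, 0.168 and 0.567 FPKM. The Snora47 locus was called higher from E10.5 to the adult (2.05). The locus that includes Snora30 spanned 25699 nt of exons and overlapped the protein-coding gene Srcap in the reference, and it was at 27.7, 8.51 and 21.1 FPKM. Together with the host lncRNAs and Snord17, 13 of 19 longer loci were called lower and 1 higher from E13.5 to the adult, against 18.6% and 29.1% of all loci.

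The 31 members with a protein-coding transcript are named by the rule but describe mRNA loci. They include Rpl13a with Snord33, Eif4a2 with Snora81, Nop56 with Snord57, Rcc1 with Snhg3 and the locus of Snhg11. Their values were left out of the counts above. Snord3a, Snord13, Snora73a, Snora73b, Snord115, Snord107 and Snord112 to Snord114, and most of the box C/D RNAs of Snhg1 and Gas5, were not analysed here.

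RNA levels of the genes for proteins that bind and assemble snoRNAs were also lower in the adult library. Of 20 such genes with a locus, 15 were called lower from E13.5 to the adult and none higher, all 20 had a change below 0, and the median change was −1.35. Of protein-coding loci, 32.1% were called lower and 13% higher, with a median of −0.50. Of the box C/D proteins, Nop58, a core protein that bridges the guide RNA and the methyltransferase, was at 60.9, 86.0 and 14.9 FPKM. Nop56, its partner, was at 43.8, 47.0 and 10.9 FPKM at a locus that is itself a member. Nhp2l1, the protein that recognises the kinked boxes, was at 50.3, 75.7 and 27.5 FPKM. Fbl, the methyltransferase fibrillarin, was at 0.983, 0.789 and 0.514 FPKM, under 1 FPKM in every library, and had no call.

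The genes of all 4 box H/ACA proteins were called lower from E13.5 to the adult. Dkc1, the pseudouridine synthase, was at 26.1, 26.8 and 8.66 FPKM. Nop10 was at 130, 247 and 88.6 FPKM, Nhp2 at 42.5, 65.2 and 13.8 FPKM and Gar1 at 8.49, 8.01 and 3.05 FPKM. Of 12 assembly factor genes, 8 were called lower. Ruvbl2, an ATPase of the assembly chaperone, went from 36.1 FPKM at E13.5 to 6.18 in the adult, and Phax, an export adaptor for capped small RNAs, from 45.3 to 12.9. Tgs1, which modifies the cap of some small RNAs, was at 16.2, 6.60 and 6.34 FPKM and had no call in that comparison. With median-of-ratios scaling 6 of 19 of these genes at 1 FPKM or more were called lower from E13.5 to the adult, against 18.9% of protein-coding loci, and 18 of 19 still had a change below 0.

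**Figure D5:**
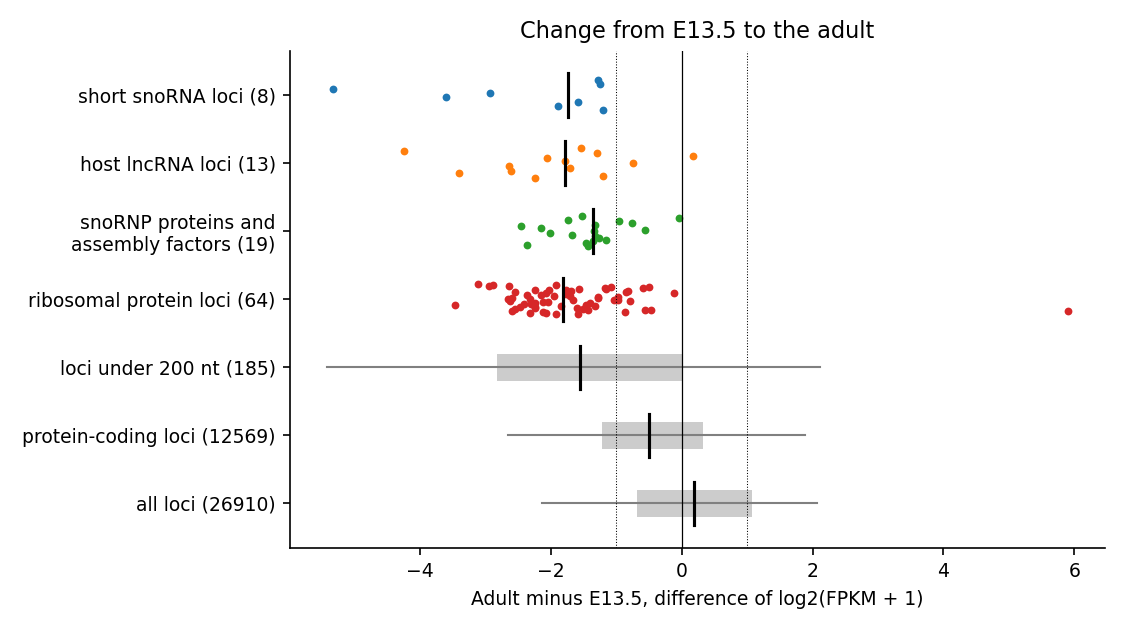
Change from E13.5 to the adult as a difference of log2(FPKM + 1), with 1 point per locus for 4 gene groups and the number of loci in brackets. Grey bars span the middle 50% of loci and grey lines the 5th to 95th percentiles for the 3 backgrounds, black ticks are medians, and dotted lines mark a difference of 1. The 4 gene groups have medians between −1.81 and −1.36, against −0.50 for protein-coding loci. For the short snoRNA loci the background of like length is the loci under 200 nt, with a median of −1.55.

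Other genes of the nucleolus gave a mixed picture. Of 8 genes for nucleolar proteins and RNA polymerase I, 5 were called lower from E13.5 to the adult and none higher. Npm1, the nucleolar chaperone nucleophosmin, was at 84.7, 106 and 18.5 FPKM. Polr1a, the largest subunit of RNA polymerase I, was at 13.46, 10.96 and 12.24 FPKM, and Rrn3, an initiation factor of that polymerase, at 46.7, 55.8 and 42.0 FPKM. Of 8 genes of RNA decay, 2 were called lower, Xrn2 (51.2 to 18.3 FPKM) and Dis3 (16.98 to 5.81 FPKM), and Smg1, a kinase of nonsense-mediated decay, was called higher (6.07 to 18.4 FPKM). The background for both lists is the 32.1% of protein-coding loci called lower in this comparison, a share above that of the decay genes.

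Small Cajal body RNAs, which guide modification of spliceosomal RNAs, were also measured only in part. Of 10 such loci, 5 had a value of 1 FPKM or more and 4 of these were called lower from E13.5 to the adult, against 18.6% of all loci. Scarna13, Scarna17, Scarna6 and Scarna2 had exon lengths of 275, 262, 248 and 1658 nt. Of the 5, only Scarna3a, at 118 nt, belonged to the loci under 200 nt, of which 64.3% were called lower. Scarna13 was at 793, 998 and 420 FPKM, Scarna6 at 177, 175.2 and 64.7 FPKM and Scarna2 at 80.4, 113 and 31.5 FPKM. Scarna17 was at 46.6, 54.8 and 65.0 FPKM and was the only one with its highest level in the adult. Scarna3a was at 24.5 FPKM at E13.5 and was listed at 0 in the other libraries, as Snora75 was.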

How the data were processed

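The authors mapped paired-end reads of 1 strand-specific total RNA library per stage to mm10 with TopHat2 (Bowtie) and assembled transcripts with Cufflinks. Further versions are not given in the sources used here. The deposited table holds 1 FPKM value per locus and library, and the deposited annotation gives exon coordinates. Members and gene lists were chosen with earlier results of these data known. Exons of a locus were merged to give its length, loci that reached 1 FPKM in any library were counted, and a pseudocount of 1 was added before log2. No test was run. Every Snhg locus, Gas5, the short members of highest mean level (up to 10, of which 8 had a value), the extremes of change and listed snoRNA groups were named. Sequences came from GRCm38.p6, the assembly of mm10, and from RefSeq promoters with pysam 0.24.0 in Python 3.11.15. The steps were tested on simulated data. Alternatives covered the pseudocount, scaling, filter, threshold, length limit and protein-coding loci. The table holds no read counts, so the counting precision of a level is unknown.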

Additional observations from a re-analysis of the deposited data

How the results depend on the processing

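No paired analysis was possible because there is 1 library for every stage. In 372 recomputed values no called change took the opposite sign. This says little, since counts have no sign and another pseudocount cannot change the sign of a single locus. Counts for short loci moved under median-of-ratios scaling (5 lower from E13.5 to the adult, median −1.20), with a difference of 2 (2 higher from E10.5 to E13.5, 3 lower from E13.5 to the adult, 0 higher from E10.5 to the adult) and with a limit of 150 nt (1 lower from E10.5 to the adult, Snora78 then counting as long). Without a filter the loci at 0 made both the E10.5 to E13.5 and the E13.5 to adult median 0.0. For longer loci, a pseudocount of 0.1 gave 2 higher from E13.5 to the adult, and the 5 FPKM filter 1 lower from E10.5 to E13.5. A difference of 2 gave 1 lower and 1 higher from E10.5 to E13.5, 6 lower and 0 higher from E13.5 to the adult and 3 lower for the adult against E10.5. Keeping protein-coding loci, which adds loci, gave 8 higher from E10.5 to E13.5, 32 lower from E13.5 to the adult, and 24 lower with 2 higher for the adult against E10.5. For snoRNP genes, median-of-ratios scaling gave 6 lower in each comparison with the adult. With this scaling 18.9% of protein-coding loci were called lower from E13.5 to the adult and 18.4% from E10.5 to the adult. A difference of 2 gave 0 lower snoRNP genes from E10.5 to E13.5, 4 from E13.5 to the adult and 1 from E10.5 to the adult. Single libraries, the lack of read counts and the missing values of loci of up to 115 nt limit every result.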
